A study of Danio rerio with 2 samples.

Results

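The genes described here are the ion and acid-base transporters of 13 solute carrier (SLC) families in zebrafish brain. They were taken as every row of the deposited table whose gene symbol begins with slc, a family number of 4, 8, 9, 11, 12, 20, 24, 26, 30, 34, 39, 40 or 41, the letter a and a digit. The rule found 74 rows for 72 genes, of 27095 genes in all. Whole brains of wild-type fish were compared between males and females by RNA sequencing, with 1 male library and 1 female library, and each library came from 5 brains pooled before extraction. The labels used here give neither age nor strain. The deposited values are estimated read counts, called reads below, with totals of 62248792 for males and 64300988 for females.

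A single library per sex gives no spread between replicates. Therefore nothing was tested, none of the differences has a replicate check, and a difference between the sexes cannot be told apart from one between these 2 pools. Ratios are log2 of male over female after scaling for library size, so a positive value is higher in the male library. Each interval is a 95% interval from the reads of that gene and covers counting error only. Levels are in CPM, which are read counts put on the same library size, where 1 CPM is about 63.3 reads in a library. They are not divided by transcript length and are compared between libraries, not between genes. In whole-brain RNA, fewer cells of a type and less RNA per cell cannot be told apart.

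SLC transporters move ions across membranes by using gradients that ion pumps have built. Members of the families here set the pH and chloride of neurons and glia, clear calcium after activity, and carry phosphate, zinc, iron, manganese and magnesium. In fish several of the same genes also work in ionocytes, the ion-transporting cells of skin and gill. Teleost fish often hold a pair of copies of a gene that mammals have as a single gene, marked a and b. Some symbols found by the rule do not name a transporter. The product of slc9a3r1 (now nherf1a) is a scaffold protein that binds sodium-proton exchangers, slc4a1ap encodes a protein first described as a partner of the anion exchanger AE1, slc34a2aas is an antisense transcript, and the row named slc12a1 carries a gene ID that the RefSeq gene table (assembly GRCz12tu) now names frmd4a.

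Of the 72 genes, 49 reached a mean of 1 CPM and are called measured, 13 had reads below that level, and 10 were listed at 0 in both libraries. Those 10 are slc4a4b, slc8a4b, slc9a5, slc24a1, slc26a2, slc26a10, slc39a1, slc39a5, slc39a13 and slc41a1. A value of 0 in this table is not evidence that a gene is silent, because 38.1% of all genes are listed at 0 in both libraries. Among them are genes that most cells use, such as the proteasome gene psmb6, the ribosome-associated gene gnb2l1, the kinase gene raf1a and the coatomer gene copz1. The share listed at 0 was 13.9% of the 72 genes.

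Most of these transporters differed little between male and female brain, and slc4a1b was the measured member that differed by 2-fold or more. A call of higher in either sex needed a mean that reached 1 CPM, a ratio that reached 2-fold and an interval that left out equality. Because the mean is over both libraries, a gene low in 1 of them can reach it through the other alone. Under this rule 1 of the 49 measured members was higher in the male library and none was higher in the female library. Over all 14756 measured genes the same rule was met by 1.06% on the male side and by 2.70% on the female side, 3.76% in either direction. The 1 of 49 is a share of 2.04%, near that background. The median log2 ratio of the measured members was 0.01, against -0.00 over all measured genes, and it turned to -0.03 when libraries were scaled by their totals. The median size of the log2 ratio, whatever its sign, was 0.12 for the members and 0.13 for all measured genes. A log2 ratio within 0.5 of 0 was found for 42 of 49 members (85.7%) and for 88.9% of all measured genes. At 1.5-fold in place of 2-fold, slc4a1b and slc8a2a were called on the male side (2.80% of all measured genes) and slc4a1a and slc9a3.2 on the female side (6.09%), or 4 of 49 in either direction against 8.89%. Counting intervals of the members lay above 0 for 18 members (36.7%), below 0 for 13 (26.5%) and held 0 for 18. Over all measured genes 31.5% of intervals lay above 0 and 30.8% below, so the members' shares were near that background.

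**Figure D1:**
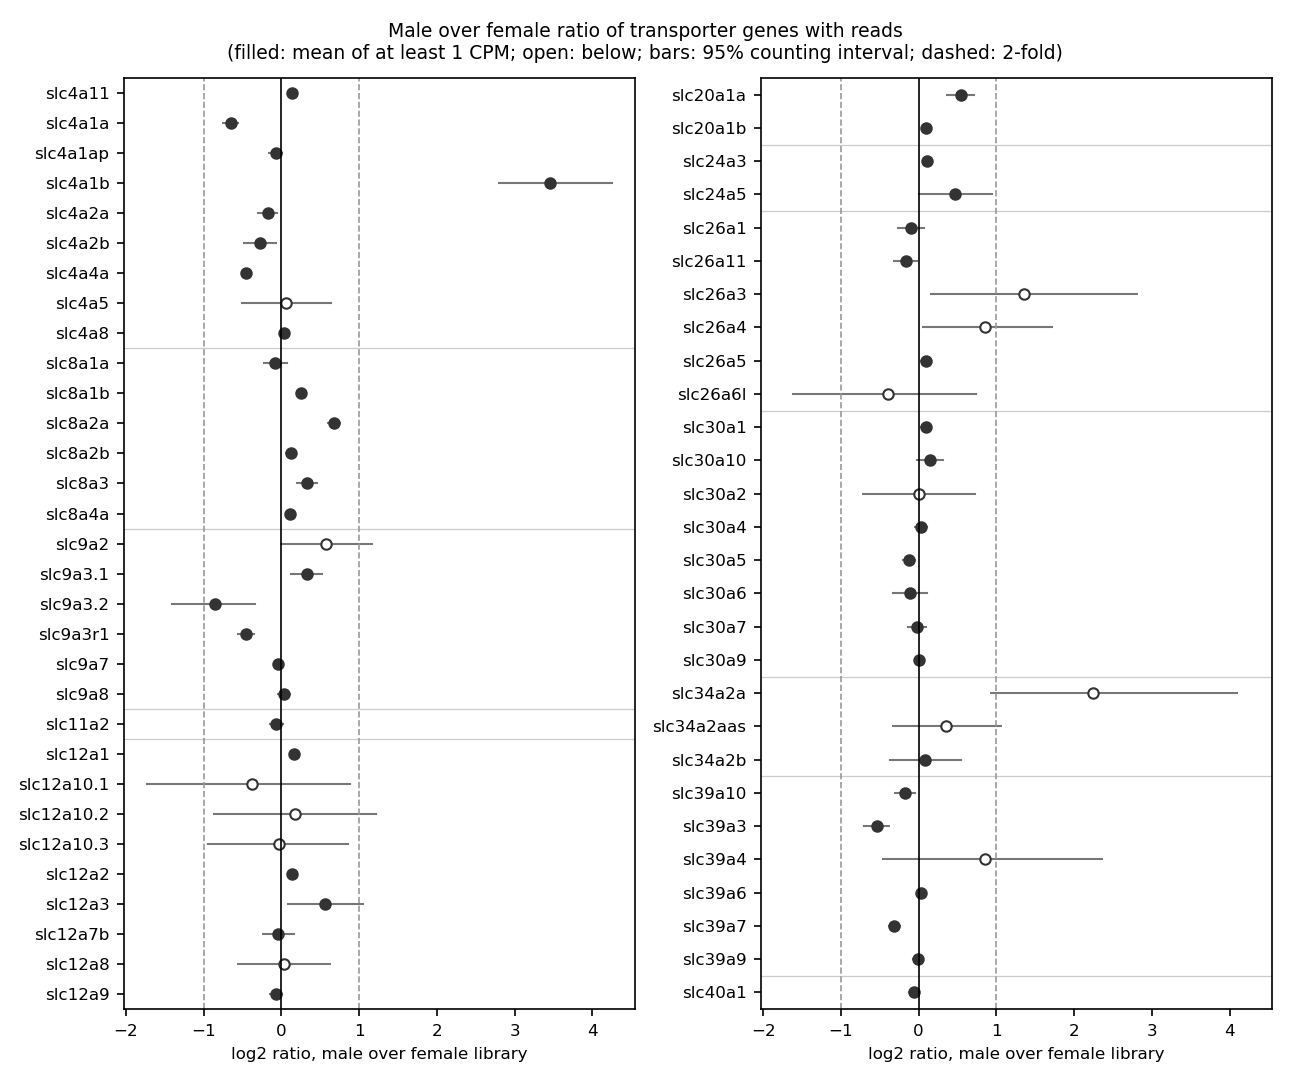
Log2 ratio of male over female reads (horizontal axis) for 59 of the 62 member genes with reads, ordered by family, with 95% counting intervals; filled points had a mean of at least 1 CPM, open points did not, and dashed lines mark 2-fold. The measured gene slc4a1b stands at 3.45, while the other filled points lie between the dashed lines.

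The SLC4 family carries bicarbonate, and it held the widest ratio among the measured members. The gene slc4a1b encodes an anion exchanger that zebrafish skin ionocytes use to exchange chloride for bicarbonate, and it lies on the plus strand of chromosome 12 (Zv9, chr12:11132938-11179353). It had 200 reads (3.26 CPM) in the male library, against 19 reads (0.291 CPM) in the female library. Its log2 ratio was 3.45 (interval 2.80 to 4.25), or 10.9-fold (interval 6.98 to 19.0). The female value is low, so most of the width of the interval comes from the female reads. At a mean of 1.78 CPM the gene is also close to the minimum level, and with a minimum of 5 CPM it was not counted and no member met the rule.

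The copy slc4a1a, on the minus strand of chromosome 3, encodes the anion exchanger of the red blood cell membrane, and it leaned the other way. It had 1367 reads in the male library against 2286 reads in the female library, a log2 ratio of -0.65 (interval -0.75 to -0.56). It did not reach 2-fold. The difference between the log2 ratios of a pair of genes does not depend on the factor that scales each whole library. It can change when a trend of the ratio with expression is removed. Between slc4a1b and slc4a1a that difference was 4.14 on the log2 scale (interval 3.45 to 4.91). Other red blood cell genes lay on the same side as slc4a1a. All 16 measured genes of that list had negative log2 ratios, with a median of -0.45, a range of -1.11 to -0.10 and a summed level of 589 CPM in the male library against 733 CPM in the female library. Over all measured genes 7417 of 14756 log2 ratios were negative. Of the 16, 1 met the rule, the embryonic globin gene hbbe2 (74 male against 171 female reads, -1.11). The adult globin gene hbaa1 stood at 4828 male against 7204 female reads (-0.49) and the haem synthesis gene alas2 at 1247 male against 2119 female reads (-0.68). The part of blood in the value of slc4a1a was not tested.

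Among sodium-coupled bicarbonate transporters, slc4a4a and slc4a8 had many reads in both libraries. The electrogenic cotransporter gene slc4a4a, whose mammalian counterpart is prominent in astrocytes, had 16377 reads in the male library against 23993 reads in the female library, a log2 ratio of -0.46 (interval -0.49 to -0.43). It fell short of 2-fold. The radial glia list, which was added after this value was seen, had 14 of 18 measured genes on the same side, with a median of -0.20, a range of -0.84 to 0.13 and none past the rule. Over all measured genes 7417 of 14756 lay on that side. Since the list was chosen with the value known, its count is a description only. Its summed level was 3930 CPM in the male library against 4396 CPM in the female library. Radial glia genes with many reads in that list were slc1a2b at -0.21, glula at -0.24 and cyp19a1b at 0.02. The part of glia in the value of slc4a4a was not tested.

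The neuronal exchanger gene slc4a8 was level, with 16747 reads in the male library against 17455 in the female library (log2 ratio 0.03, interval -0.00 to 0.06). That sign turned when libraries were scaled by totals or the trend with expression was removed. The gene slc4a11, which encodes a transporter linked to proton and borate movement, stood at 11151 male against 10774 female reads (0.14, interval 0.10 to 0.18). The copies of the widely expressed anion exchanger AE2 leaned slightly to the female library, slc4a2a at 997 male against 1197 female reads (-0.18) and slc4a2b at 359 male against 462 female reads (-0.27). These copies did not differ from each other beyond counting error (difference 0.10, interval -0.14 to 0.34). The partner gene slc4a1ap stood at -0.07 (interval -0.15 to 0.01). The gene slc4a5 (now slc4a5b), whose mammalian counterpart works in choroid plexus, had 54 male against 55 female reads, below the minimum level.

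**Figure D2:**
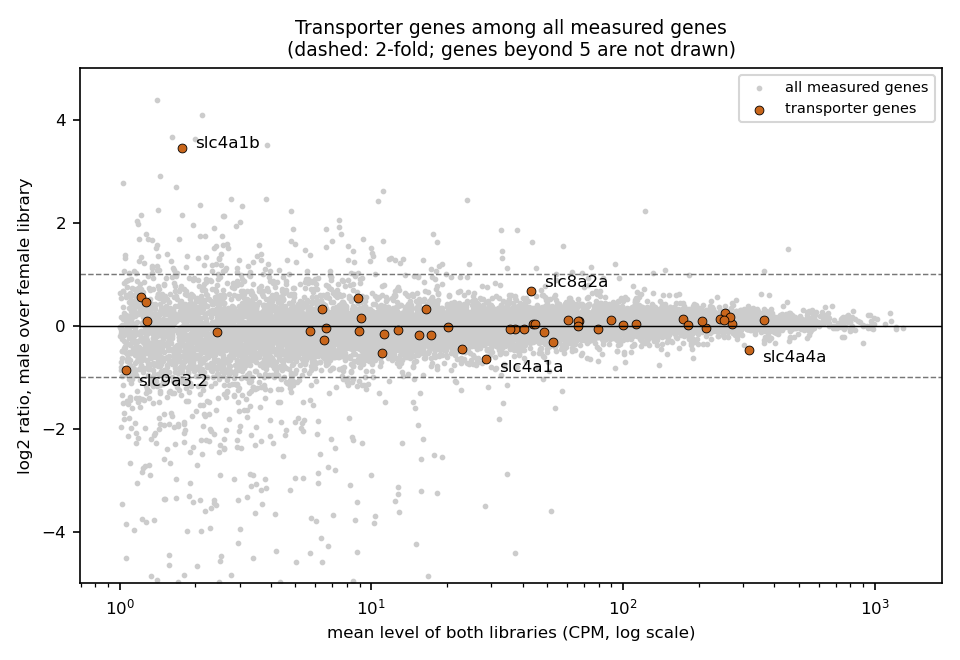
Mean level in CPM on a log axis (horizontal) against the log2 ratio of male over female (vertical) for the 49 measured members (orange) and all 14756 measured genes (grey), with dashed lines at 2-fold; 33 genes beyond 5 on the vertical axis are not drawn. The members follow the narrow band of the other genes except slc4a1b, at 1.78 CPM and 3.45.

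The value of slc4a1b can be set beside other genes of the ionocytes in which it is known to work. Ionocytes of zebrafish skin depend on the transcription factor genes foxi3a and foxi3b. The gene foxi3b had 184 reads in the male library, against 15 reads in the female library (log2 ratio 3.66, interval 2.95 to 4.57). Its level was 3.00 CPM in the male library against 0.230 CPM in the female library. Like slc4a1b, it reached a mean of 1 CPM through the male library alone. The sodium pump gene atp1a1a.4 had 2478 male against 486 female reads (2.44, interval 2.3 to 2.58). These were the 2 genes past the rule among 16 measured ionocyte genes outside the SLC families listed here. The median of these 16 was 0.06 with a range of -0.33 to 3.66, and the 23 genes of the list with reads ranged from -2.33 to 3.66. Of the 16, 10 had positive log2 ratios and 6 had negative ones. The negative ones were rhbg (-0.33), trpv6 (-0.23), atp1a1a.3 (-0.22), cftr (-0.11), atp6v1ab (-0.10) and atp1a1a.5 (-0.07). Summed over the list the level was 2846 CPM in the male library against 2710 CPM in the female library, a sum carried by pump and proton ATPase genes that brain also uses. The ionocyte genes rhcga, clcn2c, kcnj1a.2 and kcnj1a.6 are listed at 0.

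The genes of the acid-secreting ionocyte named next had log2 ratios below that of slc4a1b, some of them positive and some negative. The sodium-proton exchanger gene slc9a3.2 had 46 reads in the male library against 89 in the female library (-0.86, interval -1.41 to -0.33), which is lower in males but not 2-fold. At 0.750 CPM in the male library against 1.36 CPM in the female library, it reached the minimum through the female library alone. The ammonia channel gene rhcgb stood at 303 male against 257 female reads (0.33), and the proton pump gene atp6v1aa at 21527 male against 22068 female reads (0.05). The carbonic anhydrase genes stood at 20 male against 11 female reads for ca15a, with an interval of -0.18 to 2.16, and at 10635 male against 10806 female reads for ca2 (0.07). The genes atp6v1aa and ca2 had many reads in both libraries, and the part of ionocytes in their values was not tested. The ionocyte gene gcm2 stood at 78 male against 52 female reads (0.67, interval 0.15 to 1.21). Below the minimum level, foxi3a had 29 male against 14 female reads (1.11, interval 0.17 to 2.17). Copies of the potassium channel gene kcnj1a, also in the ionocyte list, lay below that minimum too. Of these, kcnj1a.4 had 26 male against 4 female reads (2.65, interval 1.26 to 4.77). For kcnj1a.3 there were 28 male against 9 female reads (1.67, interval 0.60 to 2.99), and for kcnj1a.5 27 against 11 (1.35, interval 0.33 to 2.54). The copy kcnj1a.1 was level, with 48 reads in each library (0.09, interval -0.52 to 0.70). No source used here says how reads that match several of these copies were divided. The ammonia channel gene rhcgl1 lay the other way, with 8 male against 45 female reads (-2.33, interval -3.70 to -1.30). Of the 7 genes of the list with reads below the minimum, intervals lay above 0 for 4, below 0 for 1 and held 0 for 2. Those 4 are foxi3a and copies of kcnj1a, so they may not be separate observations. The same shares were not computed over all genes below the minimum. The chloride ionocyte gene slc12a10.2 was at 18 male against 17 female reads.

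Skin and epithelium genes did not share a direction. Of 13 measured, 1 was called on the male side and 3 on the female side, with a median of -0.41, a range of -2.3 to 2.22 and a summed level of 651 CPM in the male library against 524 CPM in the female library. The keratin gene krt4 had 12376 male against 2816 female reads (2.22), the epithelial adhesion gene epcam 171 male against 447 female reads (-1.30), the claudin gene cldne 187 male against 893 female reads (-2.16) and the secretory gene agr2 34 male against 180 female reads (-2.3). The gene agr2, at 0.554 CPM in the male library against 2.76 CPM in the female library, reached a mean of 1 CPM through the female library alone. The defining epithelial gene cdh1 is listed at 0. The part of skin, gill or other non-neural tissue in the value of slc4a1b was not tested.

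**Figure D3:**
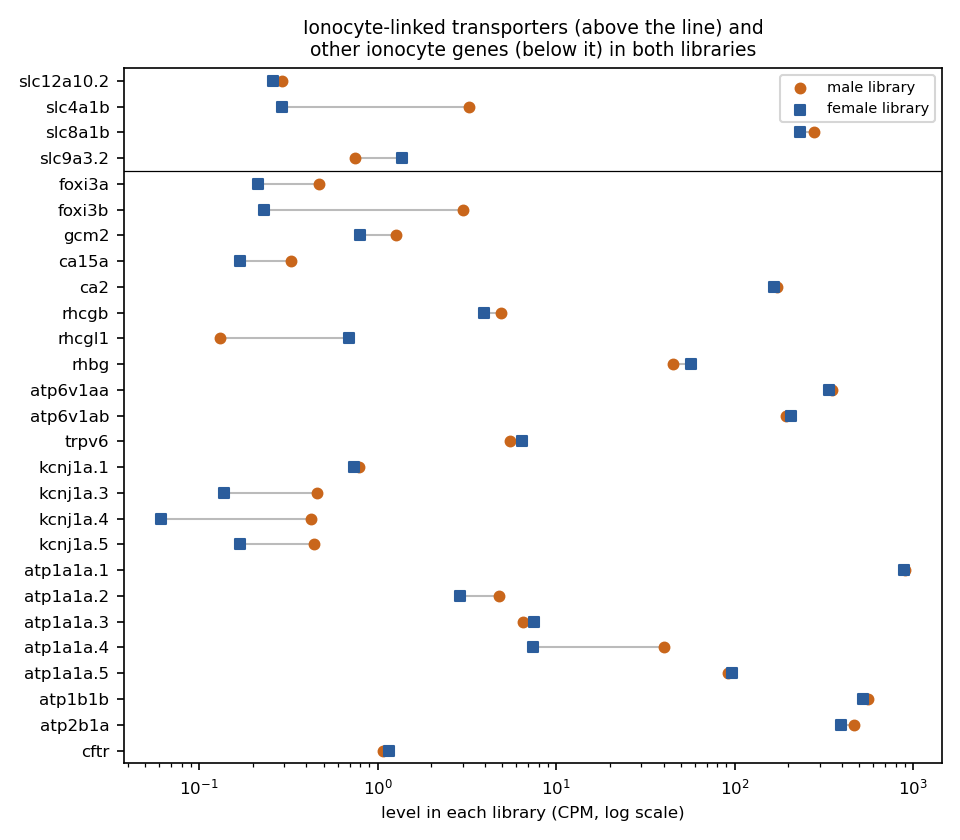
Level in CPM on a log axis in the male library (orange circles) and the female library (blue squares) for 4 ionocyte-linked transporter genes above the line and for the other ionocyte genes with reads below it. The male circle of slc4a1b (3.26 CPM) lies far right of its female square (0.291 CPM), as for foxi3b and atp1a1a.4, while slc9a3.2 lies the other way round.

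SLC8 proteins exchange sodium for calcium, and none of their genes reached 2-fold. An interval above 0 was found for 5 of 6 measured members, with a family median of 0.18, against 31.5% and a median of -0.00 over all measured genes. With 6 members these values are a description only. The gene slc8a2a, on chromosome 5, encodes the exchanger NCX2, which in mammals is found mainly in brain. It had 3264 reads (53.2 CPM) in the male library, against 2168 reads (33.2 CPM) in the female library, a log2 ratio of 0.68 (interval 0.60 to 0.76). This is 1.60-fold and short of the rule. Its copy slc8a2b on chromosome 15 was closer to level, at 3864 male against 3788 female reads (0.12, interval 0.05 to 0.18). The copies differed from each other by 0.56 (interval 0.46 to 0.66), more than counting error.

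A smaller difference of the same kind was seen for the copies of the exchanger NCX1. The gene slc8a1b, which zebrafish calcium-absorbing ionocytes also use, had 17011 male against 15235 female reads (0.25, interval 0.22 to 0.28). Its log2 ratio was 0.21 with libraries scaled by totals and 0.18 with the trend with expression removed, both below that interval. The gene slc8a1a, known for its role in the zebrafish heart, had 764 male against 857 female reads (-0.08, interval -0.22 to 0.07), and this sign turned when the trend with expression was removed. The copies differed by 0.32 (interval 0.18 to 0.47). With that trend removed their log2 ratios were closer, at 0.18 for slc8a1b and 0.00 for slc8a1a. The gene slc8a3 stood at 1123 male against 952 female reads (0.33, interval 0.20 to 0.45) and slc8a4a, an exchanger that mammals lack, at 23197 male against 22934 female reads (0.11, interval 0.08 to 0.13), or 0.04 with the trend with expression removed.

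The SLC24 exchangers named next also move potassium. The gene slc24a3 had 15978 reads in the male library against 15831 in the female library (0.10, interval 0.07 to 0.13, or 0.03 with that trend removed), and the pigment cell gene slc24a5 had 91 male against 70 female reads (0.46, interval 0.00 to 0.94). The rod exchanger gene slc24a1 is listed at 0, as are 5 of 29 photoreceptor genes found outside these families, among them pde6a and pde6b. The measured photoreceptor genes were higher in the male library. Of 17 measured photoreceptor genes 8 met the rule on the male side and none on the female side; they had a median of 0.96, a range of 0.03 to 2.90 and a summed level of 319 CPM in the male library against 208 CPM in the female library. Examples were the opsin genes rho (1179 male against 205 female reads, 2.61), opn1lw1 (157 male against 22 female reads, 2.90) and exorh (1.45) and the rod transducin gene gnat1 (2.43). Of the 8 genes called, opn1lw1, opn1lw2 and crx reached a mean of 1 CPM through the male library alone. Male against female levels were 2.56 against 0.337 CPM for opn1lw1, 1.81 against 0.261 CPM for opn1lw2 and 3.23 against 0.966 CPM for crx. Among 18 measured calcium pumps, buffers and mitochondrial calcium genes, 1 met the rule. It was the muscle calcium pump gene atp2a1, at 3653 male against 1069 female reads (1.86), and the median of that list was 0.04 with a range of -0.26 to 1.86.

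SLC9 proteins exchange sodium for protons. The 8 measured members under this family name, among them the scaffold gene slc9a3r1, had a median of -0.01. The widest contrast lay between neighbouring copies. The genes slc9a3.1 and slc9a3.2 lie 7671 bases apart on the minus strand of chromosome 19 (Zv9, chr19:11314016-11352324 and chr19:11359996-11393404). The first stood at 434 male against 369 female reads (0.32, interval 0.12 to 0.53), opposite in sign to slc9a3.2. The copies differed by 1.18 (interval 0.61 to 1.77). No source used here says how reads that match both copies were divided. The scaffold gene slc9a3r1 stood at 1184 male against 1729 female reads (-0.46, interval -0.57 to -0.35).

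The genes slc9a7 and slc9a8, for exchangers of inner membranes such as the Golgi, were close to level. The gene slc9a7 had 12943 reads in the male library against 14163 in the female library (-0.04, interval -0.08 to -0.01), and slc9a8 had 2718 male against 2821 female reads (0.03, interval -0.04 to 0.11). The sign of slc9a8 turned when libraries were scaled by totals. The gene slc9a2 had 63 male against 45 female reads, below the minimum level (0.57, interval -0.00 to 1.16).

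**Figure D4:**
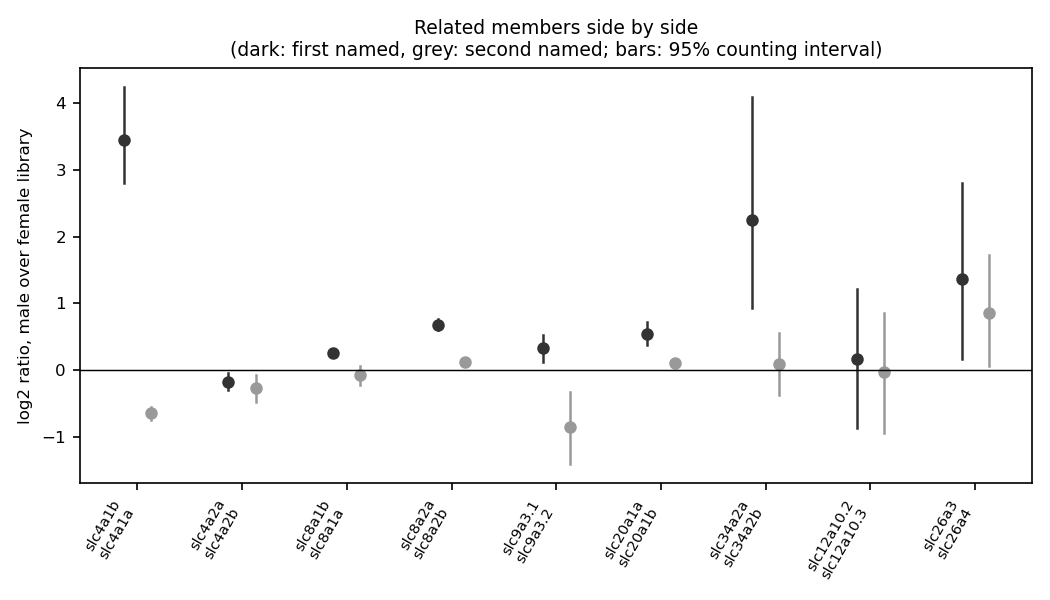
Log2 ratio of male over female (vertical axis) with 95% counting intervals for 9 sets of related members; the first named gene of each is dark and the second grey. The copies of slc4a1, slc8a1, slc8a2, slc9a3, slc20a1 and slc34a2 differ beyond counting error, and those of slc4a2 and the pairs slc12a10.2 with slc12a10.3 and slc26a3 with slc26a4 do not. The gene slc34a2a lies below the minimum level, and its reads cannot be told apart from those of its antisense partner.

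Cation-chloride cotransporters of the SLC12 family set the chloride inside neurons. The inward carrier gene slc12a2 (NKCC1) is split over separate rows of chromosome 10. The row on the minus strand (Zv9, chr10:16851011-16888982) had 14774 male against 14274 female reads (0.14, interval 0.11 to 0.17), and the row on the plus strand (chr10:16254384-16292900) had 803 male against 854 female reads (-0.00, interval -0.14 to 0.14). Summed, slc12a2 had 15577 reads in the male library against 15128 in the female library (0.13, interval 0.10 to 0.16). The outward carrier gene slc12a7b was level at 400 male against 438 female reads (-0.04, interval -0.24 to 0.16), with a sign that turned when the expression trend was removed. The gene slc12a9 stood at 2424 male against 2702 female reads (-0.07, interval -0.15 to 0.01).

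The thiazide-sensitive cotransporter gene slc12a3, known from kidney in mammals, had 89 male against 64 female reads (0.56, interval 0.08 to 1.05). Its fish relatives slc12a10.1, slc12a10.2 and slc12a10.3, on chromosome 7, had between 10 and 24 reads in each library. At that depth no difference could be seen, with intervals of -1.73 to 0.88, -0.87 to 1.22 and -0.94 to 0.86. The row named slc12a1 had 17259 male against 16345 female reads (0.17, interval 0.14 to 0.20). In mammals slc12a1 encodes the kidney cotransporter NKCC2. The gene ID of that row is now frmd4a, and the ID that now carries the symbol slc12a1 is listed at 0, so these reads are not evidence of the kidney cotransporter in brain. Of 14 measured genes of the WNK kinase pathway, which regulates this family by phosphorylation, none met the rule in either direction. Their median was 0.10 with a range of -0.37 to 0.86, and 12 were positive and 2 negative. The gene wnk4b stood at 0.86 (174 male against 102 female reads) and wnk1b at 0.11 (26641 male against 26320 female reads). On the other side, cab39l1 stood at -0.37 (1964 male against 2699 female reads).

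Phosphate carriers differed between copies. The gene slc20a1a had 644 reads in the male library, against 471 reads in the female library (0.54, interval 0.37 to 0.71). Its copy slc20a1b had 13136 male against 13058 female reads (0.10, interval 0.06 to 0.13), and the copies differed by 0.44 (interval 0.27 to 0.62). With the trend with expression removed, slc20a1a stood at 0.64 and slc20a1b at 0.03. The gene slc34a2a, for a phosphate carrier of absorbing epithelia, had 24 reads in the male library against 5 reads in the female library. Its ratio of 2.24 has an interval of 0.93 to 4.1, and its mean of 0.234 CPM is below the minimum. Its whole span of 10462 bases on chromosome 1 lies within the antisense transcript slc34a2aas on the other strand, which had 41 male against 34 female reads (0.36, interval -0.33 to 1.06). Whether counting used strand is not given, so reads of this gene and its antisense partner cannot be told apart. The copy slc34a2b was level, with 81 reads in each library (0.09, interval -0.37 to 0.55).

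The anion exchangers of the SLC26 family with most reads were close to level. The gene slc26a5, whose mammalian counterpart encodes the hair cell motor protein prestin, had 4253 male against 4237 female reads (0.09, interval 0.03 to 0.16). The sulfate carrier gene slc26a1 had 531 male against 605 female reads (-0.10). The gene slc26a11 leaned slightly to the female library, with 648 male against 774 female reads (-0.17, interval -0.32 to -0.02). The neighbours slc26a3 and slc26a4 on chromosome 4 were below the minimum level. The gene slc26a3 (now slc26a3.1), an exchanger of chloride for bicarbonate, had 20 male against 8 female reads (1.36, interval 0.17 to 2.80). The pendrin gene slc26a4 had 36 male against 21 female reads (0.85, interval 0.05 to 1.72). Of 10 measured genes of the carbonic anhydrase family, which includes enzymes that supply bicarbonate to such carriers, 1 met the rule. It was ca15b on the female side, with 17 male against 281 female reads (-3.92, interval -4.76 to -3.25), and the list median was 0.05. The gene ca15b, at 0.277 CPM in the male library against 4.31 CPM in the female library, reached the minimum through the female library alone.

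Among the 13 members with reads below the minimum level, intervals excluded 0 for 3, which were slc26a3, slc26a4 and slc34a2a. Each was higher in the male library. The same share was not computed over all genes below the minimum, so this count is a description only. The reads of slc34a2a also cannot be told apart from those of its antisense partner.

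Zinc carriers were close to level on the export side. SLC30 proteins move zinc out of the cytosol, and all 7 measured members lay within 0.5 of 0, with a median of 0.01. The plasma membrane exporter gene slc30a1 (now slc30a1a) had 4182 reads in the male library against 4169 in the female library (0.09), slc30a9 6177 male against 6545 female reads (0.01, with a sign that turned under library totals or without the expression trend), and the secretory pathway gene slc30a5 2861 male against 3318 female reads (-0.13, interval -0.20 to -0.05). The gene slc30a10, whose mammalian counterpart exports manganese, stood at 588 male against 565 female reads (0.15, interval -0.02 to 0.32).

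SLC39 proteins bring zinc into the cytosol, and 3 of 5 measured members had an interval below 0, with a median of -0.18; over all measured genes 30.8% of intervals lay below 0. The gene slc39a3 had 550 reads in the male library against 850 reads in the female library, a log2 ratio of -0.54 (interval -0.70 to -0.38). The gene slc39a7, which releases zinc from the endoplasmic reticulum and Golgi, had 2887 male against 3819 female reads (-0.31, interval -0.39 to -0.24), and slc39a10 had 890 male against 1072 female reads (-0.18, interval -0.31 to -0.05). The genes slc39a6 (7004 male against 7263 female reads, 0.04) and slc39a9 (4059 male against 4343 female reads, -0.01) were level. For slc39a6 the sign turned when libraries were scaled by totals or the trend with expression was removed. None of the 5 measured members reached 2-fold.

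Iron carriers were close to level. The gene slc11a2, for the proton-coupled importer DMT1, had 2124 reads in the male library against 2367 in the female library (-0.07, interval -0.15 to 0.02). It is summed over separate rows of chromosome 11, on the minus strand (-0.06, interval -0.15 to 0.03) and the plus strand (-0.16, interval -0.52 to 0.21). The ferroportin gene slc40a1, the iron exporter, had 4797 male against 5324 female reads (-0.06, interval -0.12 to -0.01). Of 15 measured genes of iron and metal handling outside these families, 1 met the rule. It was the transferrin gene tfa, made in liver, with 487 male against 6243 female reads (-3.59), and the list median was -0.27. The metallothionein gene mt2 stood at -0.27 and the receptor gene tfr1b at -0.06.

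The libraries carried genes of brain and also genes of other tissues. Of 16 measured neuron genes none met the rule, with a range of -0.19 to 0.21 and snap25a at 78019 male against 86053 female reads. Liver genes met it on the female side for 18 of 19 measured (median -3.69, 227 CPM in the male library against 2698 CPM in the female library, vtg1 at 189 male against 58659 female reads), and oocyte genes for 7 of 9 (median -5.29, 129 CPM in the male library against 232 CPM in the female library, zp3a.1 at 7 male against 1096 female reads). The level gene nobox carried much of the oocyte sum, which without it was 14.0 CPM in the male library against 122 CPM in the female library. Its row, with 7027 male against 7147 female reads, is named wu:fi69e09 in the deposited table. It was matched to nobox by its gene ID alone, and whether its reads come from nobox was not tested. The 7 oocyte genes that met the rule all reached a mean of 1 CPM through the female library alone. The same holds for the liver genes vtg2, vtg4, vtg5, vtg6, vtg7, ambp and c3b. Choroid plexus and ependyma genes met the rule on the female side for 2 of 8 measured (median -0.54, 357 CPM in the male library against 441 CPM in the female library). Those were the ciliary genes foxj1a (456 male against 1464 female reads) and rsph9. Of the 3 genes of that list with reads below the minimum, the interval lay above 0 for sspo (47 male against 12 female reads, 2.01). It lay below 0 for kcnj13 (32 male against 81 female reads, -1.24) and held 0 for ttr. The part of these tissues in the values of the transporters was not tested.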

How the data were processed

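Messenger RNA of whole brain was measured in 1 male and 1 female library, each from 5 pooled fish, grouped by the sex in the labels. Per the labels' protocols, each library took 3 µg of RNA and was read in single 51-base reads. Per the submitters' processing notes, the tools were TopHat 1.4.1 and DESeq and the genome build was Zv9; which program counted reads, with what annotation and whether by strand, is stated in no source used here. Per the file headers the deposited columns are raw and normalized counts. From the values, the raw columns are estimated counts (within 0.001, whole numbers made up 1.56% of the male and 1.92% of the female values above 0), and the authors' normalized columns are on a log2 scale.

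Estimated counts were summed by Entrez ID, rounded, and scaled by median-of-ratios size factors (0.970 male, 1.03 female). Ratios are log2 of male over female counts with 0.5 added to each. The interval was derived from the 95% Clopper-Pearson (exact binomial) limits on the share of a gene's reads that were male. Amplified reads without molecular identifiers are not independent molecules. The rule of size needs a mean level of 1 CPM or more, a ratio of 2-fold or more and an interval without 1. Differences between copies have an exact conditional interval of the odds ratio, or a normal one where a count is over 3000. Calculations were tested on simulated counts with counting noise only, so differences between pools were not covered. The changes planted there were in genes with a higher mean of reads than slc4a1b.

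Genes named are every member past the rule, per family those with most reads and those whose intervals lie farthest from 0, copies of these, and leaders of 13 gene lists; others named were chosen after their values were seen. Of the members, 3 are in the counts and medians but are not reported here singly. Members and lists were chosen with earlier results of these data known. For 81.6% of genes the RefSeq gene table gave a current symbol by Entrez ID. Levels per coding length were planned and not run, since no coding lengths were used here. Alternatives were scaling by TMM (edgeR) or by library totals, the authors' normalized columns, minimum levels of 0 and 5 CPM, folds of 1.5 and 3, an added count of 1, removal of a lowess trend (fraction 0.3) with expression, unsummed rows and, added after seeing the data, members by current symbol. Software was R 4.3.3 with edgeR 4.0.16, and Python 3.11.15 with scipy 1.17.1, pandas 2.3.3, statsmodels 0.14.6, numpy 2.4.6 and matplotlib 3.10.9.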

Additional observations from a re-analysis of the deposited data

How the results depend on the processing

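The count of 1 member higher in the male library, slc4a1b, was kept with TMM factors, the authors' normalized columns, library totals, a 3-fold limit, an added count of 1, the expression trend removed, unsummed rows or current symbols, where its log2 ratio ranged from 3.41 to 3.64. It was 0 at a minimum of 5 CPM, since slc4a1b lies below that level, 3 with no minimum (slc26a3 and slc34a2a besides), and 2 at 1.5-fold (slc8a2a besides). The count on the female side was 0, and 2 at 1.5-fold (slc4a1a and slc9a3.2). At 1.5-fold 2.80% of all measured genes were called on the male and 6.09% on the female side. The members' median of 0.01 became -0.030 with library totals. Of the 62 members with reads, the log2 ratio left its counting interval for 12 with the expression trend removed and for 11 with library totals. With that trend removed these included slc4a4a (-0.53), slc4a11 (0.07), slc12a2 (0.06) and slc20a1b (0.03). The narrow intervals of genes with many reads therefore do not cover the choice of scaling. Over all genes, 156 were called on the male and 399 on the female side. These counts were 59 male and 112 female at a minimum of 5 CPM, 319 male and 656 female with no minimum, 413 male and 899 female at 1.5-fold, and 54 male and 231 female at 3-fold. The male share of calls was 28.1%, and ranged from 18.9% at 3-fold to 38.2% with the expression trend removed. No paired analysis was possible because there is 1 library per sex. With about 63.3 reads per CPM, members with few reads can show large differences only.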

Other observations

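The deposited table lists 28 more genes under provisional names that the RefSeq gene table now places in the same families. Of these, 13 were measured, 2 had reads below the minimum and 13 are listed at 0. None met the rule of size, and the 13 measured genes ranged from -0.24 to 0.46 with a median log2 ratio of 0.11. They include well-known neuronal carriers that the symbol rule missed. The chloride extruder gene slc12a5b (KCC2) had 39647 reads in the male library against 39015 in the female library (0.11, interval 0.09 to 0.13), and its copy slc12a5a had 7617 male against 7440 female reads (0.12, interval 0.08 to 0.17). The neuronal bicarbonate carrier gene slc4a10a had 37085 male against 37319 female reads (0.08) and slc4a10b 26959 male against 26206 female reads (0.13). The phosphate carrier gene slc20a2 had 27576 male against 27622 female reads (0.09, interval 0.06 to 0.11), and the anion exchanger gene slc4a3 had 13839 male against 13074 female reads (0.17, interval 0.14 to 0.21). Among genes with slc24 symbols, slc24a4b had 376 male against 291 female reads (0.46, interval 0.23 to 0.68). The gene slc24a6a had 16420 male against 14256 female reads (0.29, interval 0.26 to 0.32) and slc24a4a 4653 male against 4540 female reads (0.12).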
